A study of Mus musculus with 8 samples.

Results

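Adipocyte genes of the sciatic nerve sheath were described on 8 Agilent 2-colour arrays. The 10 genes were Adipoq, Plin1, Plin4, Fabp4, Pck1, Lipe, Pnpla2, Pparg, Cidec and Cfd. They were chosen by name, with earlier results of these data known. All probes carrying these names on the array were taken, 11 of 55681 probes. All 10 genes passed the filter on dim probes, 10 of 15343 gene rows. The arrays held sciatic nerve of male mice aged 60 days, 4 from wild-type (non-transgenic) mice and 4 from SOD1G93A transgenic mice, which carry a mutant human SOD1 and serve as a model of amyotrophic lateral sclerosis. Nerve RNA carried the green dye Cy3, and the red dye Cy5 marked a reference common to all arrays, neonatal heart, liver and kidney RNA pooled from both genotypes. Strain and transgene promoter were not given in the sources used here, nor whether an array held the nerve of a single mouse. All array names carry the same slide number, with wild type at positions beginning with 1 and SOD1G93A at positions beginning with 2, so position and genotype cannot be told apart.

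White adipocytes store triglyceride in a single large lipid droplet and release it as fatty acids when energy is needed. The nuclear receptor PPARG drives their gene programme, perilipins and CIDEC coat the droplet, ATGL and hormone-sensitive lipase empty it, and the cells secrete adiponectin and adipsin. In a peripheral nerve, adipocytes are found in the outer connective sheath, the epineurium, while the fascicles inside the perineurium hold axons and Schwann cells. A dissected nerve may therefore carry fat tissue around it, and its amount was not measured here.

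Probes of a secreted product, a lipase and a droplet protein are shown, to give what these spots measured. For Cidec the dimmer probe is shown, while the gene-level values below come from the brighter one. Each is 60 bases long and is printed 5′ to 3′ in the sense direction, in lower case throughout, with no base singled out.
Adipoq probe: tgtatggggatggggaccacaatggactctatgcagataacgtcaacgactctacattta
Lipe probe: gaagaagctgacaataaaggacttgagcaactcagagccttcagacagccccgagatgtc
Cidec probe: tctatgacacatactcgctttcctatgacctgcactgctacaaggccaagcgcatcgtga
On mouse build mm9, as the files give positions, they lie at chr16:23157576-23157635 on the plus strand, chr7:26165828-26165887 on the minus strand and chr6:113378116-113378175 on the minus strand. GC content of the 11 probes ran from 35.0% to 55.0%, against a median of 43.3% over all probes.

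The promoters of the 10 genes were searched in the 250 bases before each RefSeq start on GRCm38.p6. The search covered motifs of adipocyte transcription factors and the letters of the TATA box. Of the 10 genes, 9 had a window, and Fabp4 had none. The sites searched on both strands were direct repeat 1 (bound by PPARG with its partner RXRA, the hexamer AGGTCA repeated with 1 base between copies), a looser form with any base at the fourth place of each hexamer, TTGCNNAA (bound by C/EBP factors) and TATAAA. The 50 bases after the start, planned as part of the window, were not searched. The C/EBP letters were in a window of Plin1, Pparg and Cidec, 3 of 9 genes, and of 10.8% of all 27025 genes with a window. Neither form of direct repeat 1 was in a window of the 9 genes, and they were in 0.0407% and 0.4% of all genes. TATAAA was in a window of Pparg only among the 9, on the strand opposite to the gene. On either strand it was in 14.3% of all genes. The windows that held the C/EBP letters are shown 5′ to 3′ on the gene's own strand, with those letters in capitals.
Plin1, chr7:79732777-79733026, minus strand: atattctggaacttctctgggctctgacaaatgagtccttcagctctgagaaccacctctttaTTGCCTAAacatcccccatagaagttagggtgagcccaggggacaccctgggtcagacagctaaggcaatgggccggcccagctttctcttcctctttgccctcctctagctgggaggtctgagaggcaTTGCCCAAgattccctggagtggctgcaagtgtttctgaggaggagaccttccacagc
Pparg, chr6:115421816-115422065, plus strand: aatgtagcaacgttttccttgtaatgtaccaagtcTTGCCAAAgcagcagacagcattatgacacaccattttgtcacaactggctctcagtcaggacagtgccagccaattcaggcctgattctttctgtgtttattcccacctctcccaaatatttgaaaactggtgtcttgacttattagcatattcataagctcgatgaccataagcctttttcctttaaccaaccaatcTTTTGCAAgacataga
Cidec, chr6:113434765-113435014, minus strand: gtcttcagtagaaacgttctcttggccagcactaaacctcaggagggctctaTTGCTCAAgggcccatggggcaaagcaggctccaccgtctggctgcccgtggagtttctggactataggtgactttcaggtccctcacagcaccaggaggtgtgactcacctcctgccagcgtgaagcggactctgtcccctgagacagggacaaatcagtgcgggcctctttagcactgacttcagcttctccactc
The matches began 187 and 58 bases before the start in Plin1, 215 and 16 bases before it in Pparg and 198 bases before it in Cidec. Pparg had 3 windows and Cidec 2, so these genes had more chances of a match than a gene with 1 start. The letters are a description of the windows, and say nothing of binding.

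Every value below is, unless another scale is named, the log2 ratio of nerve signal over reference signal on the same spot, after background correction and normalization within the array. A value of 0 means equal signal in both dyes. Ratios of different probes are not compared with each other, since probes differ in response and the reference organs express some of these genes themselves. The SD describes the 4 arrays of a group. A gene was called at a limma p-value below 0.05 after Benjamini-Hochberg adjustment over all 15343 rows.

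All 10 genes had a lower mean in SOD1G93A nerve, by 0.21 to 1.76 on the log2 scale, and 0 of 10 were called. Over all genes 54.7% had a lower mean in SOD1G93A, and 0.163% were called, 0.0912% as lower. The median difference over the 10 genes was -0.85, against -0.02 over all rows. An unadjusted limma p below 0.05 was reached by 5 of the 10, compared with 6.57% of all genes that were lower at this level. The groups did not overlap for 1 of the 10, Plin4, compared with 4.32% of all genes lower without overlap. The 10 genes shared the same 8 arrays and followed each other closely over them, so their counts are not separate observations. They were also chosen with earlier results of these data known, so the shares over all genes are a description and no test. In whole nerve, fewer adipocytes and less of these RNAs per adipocyte cannot be told apart.

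**Figure D1:**
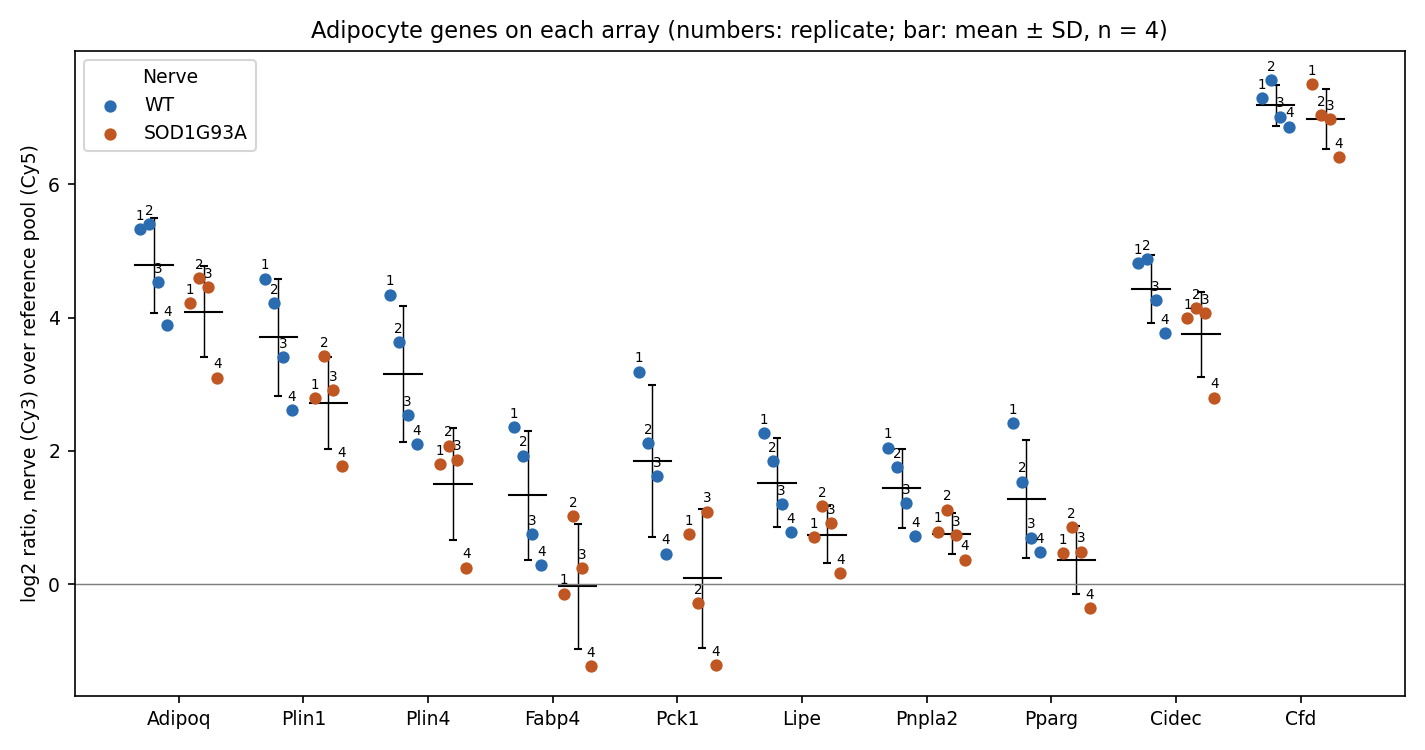
The y axis gives the log2 ratio of nerve over reference for each of the 10 adipocyte genes on the x axis; each point is 1 array with its replicate number, and bars give the mean ± SD of 4 arrays. SOD1G93A replicate 4 was the lowest point of every gene, and wild-type replicate 1 or 2 the highest.

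Pparg, the nuclear receptor that turns on the adipocyte programme, was measured by 10 spots of 1 probe at chr6:115440213-115440272 (mm9, plus strand). Its log2 ratio was 2.42, 1.54, 0.70 and 0.48 on wild-type replicates 1 to 4 and 0.47, 0.86, 0.49 and -0.36 on SOD1G93A replicates 1 to 4. Wild-type replicates 1 and 2 stood above all SOD1G93A arrays, while replicates 3 and 4 lay inside the SOD1G93A range. The means were 1.28 ± 0.89 and 0.37 ± 0.52 (SD, n = 4 each), a difference of -0.92 ± 0.42 (SE, 95% interval -1.86 to 0.02, limma adjusted p = 0.449). Without wild-type replicate 1 the difference was -0.54.

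Plin1 encodes perilipin 1, which coats the droplet of white adipocytes and guards it from lipases (probe at chr7:86866112-86866171, mm9, minus strand). Its log2 ratio was 4.58, 4.22, 3.41 and 2.61 on the wild-type arrays and 2.79, 3.42, 2.91 and 1.77 on the SOD1G93A arrays, in the order of replicates. Wild-type replicate 4 was lower than 3 of the 4 SOD1G93A arrays, so the groups overlapped. The difference of the means was -0.98 ± 0.45 (SE, 95% interval -2 to 0.04, limma adjusted p = 0.453), or 1.98-fold lower in SOD1G93A.

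Plin4 encodes perilipin 4, a droplet protein abundant in white fat and also made in muscle (probe at chr17:56240055-56240114, mm9, minus strand). Its log2 ratio was 4.34, 3.63, 2.54 and 2.10 on the wild-type arrays and 1.80, 2.08, 1.87 and 0.25 on the SOD1G93A arrays. The lowest wild-type value, 2.10, and the highest SOD1G93A value, 2.08, nearly touched, and in the Cy3 channel alone the groups overlapped. The means were 3.15 ± 1.02 and 1.5 ± 0.84 (SD, n = 4 each), and the difference was -1.65 ± 0.53 (SE, 95% interval -2.85 to -0.45). This was the smallest p of the 10 genes and was not called (limma adjusted p = 0.294).

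Cidec, which encodes the protein that fuses droplets into a single large one, had 2 probes. The brighter one, at chr6:113374630-113374689 (mm9, minus strand), gave 4.81, 4.87, 4.26 and 3.77 on the wild-type arrays and 3.99, 4.14, 4.07 and 2.80 on the SOD1G93A arrays. SOD1G93A replicate 4 lay apart from the other 3 arrays of its group, and wild-type replicate 4 was lower than those 3. The difference was -0.68 ± 0.34 (SE, limma adjusted p = 0.481), and -0.37 without SOD1G93A replicate 4. The other probe, printed above, gave 3.97, 3.75, 3.46 and 2.02 on the wild-type and 2.05, 3.16, 2.79 and 1.36 on the SOD1G93A arrays, a difference of -0.96 ± 0.48 (SE, limma adjusted p = 0.506 over all kept probes). Both probes were lowest on SOD1G93A replicate 4 and lower in the SOD1G93A mean.

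Pnpla2 encodes adipose triglyceride lipase (ATGL), which starts the breakdown of stored fat in adipocytes and in other tissues (probe at chr7:148645928-148645987, mm9, plus strand). Its log2 ratio was 2.05, 1.76, 1.22 and 0.72 on the wild-type arrays and 0.79, 1.12, 0.74 and 0.37 on the SOD1G93A arrays. The difference was -0.68 ± 0.27 (SE, 95% interval -1.30 to -0.06, limma adjusted p = 0.390). Lipe, the gene of hormone-sensitive lipase, which acts on the product of ATGL, gave 2.27, 1.85, 1.20 and 0.78 on the wild-type arrays and 0.71, 1.17, 0.92 and 0.17 on the SOD1G93A arrays. On SOD1G93A replicate 4 the Lipe probe was not well above background, and it was so on the other 7 arrays. The difference was -0.78 ± 0.32 (SE, limma adjusted p = 0.407). For both lipases wild-type replicates 1 to 3 were above all SOD1G93A arrays and replicate 4 was within their range.

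Fabp4 encodes the fatty acid carrier of adipocytes, which is also made by capillary endothelium and macrophages (probe at chr3:10204452-10204511, mm9, minus strand). It gave 2.36, 1.93, 0.75 and 0.29 on the wild-type arrays and -0.14, 1.02, 0.24 and -1.23 on the SOD1G93A arrays. SOD1G93A replicate 2 was above wild-type replicates 3 and 4. The difference was -1.36 ± 0.55 (SE, 95% interval -2.59 to -0.13, limma adjusted p = 0.389). Pck1 encodes cytosolic phosphoenolpyruvate carboxykinase, which makes glycerol 3-phosphate for triglyceride in fat and glucose in liver and kidney (probe at chr2:172984307-172984366, mm9, plus strand). It gave 3.19, 2.12, 1.62 and 0.46 on the wild-type arrays and 0.75, -0.28, 1.09 and -1.21 on the SOD1G93A arrays. The Pck1 difference, -1.76 ± 0.62 (SE, 95% interval -3.16 to -0.35), was 3.38-fold and was not called (limma adjusted p = 0.331). Pck1 was one of the 2 genes for which SOD1G93A replicate 2 was not the highest of its group, the other being Cfd.

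Adipoq encodes adiponectin, the hormone secreted almost only by adipocytes. It gave 5.32, 5.40, 4.53 and 3.89 on the wild-type arrays and 4.22, 4.59, 4.45 and 3.10 on the SOD1G93A arrays. Wild-type replicate 4 was below 3 SOD1G93A arrays. The difference was -0.69 ± 0.40 (SE, 95% interval -1.59 to 0.21, limma adjusted p = 0.543), and -0.36 without SOD1G93A replicate 4. Cfd encodes adipsin, the complement protease factor D that adipocytes secrete (probe at chr10:79355302-79355361, mm9, plus strand). It gave 7.29, 7.56, 7.01 and 6.86 on the wild-type arrays and 7.5, 7.03, 6.97 and 6.40 on the SOD1G93A arrays, with the groups interleaved. The Cfd difference was -0.21 ± 0.23 (SE, 95% interval -0.72 to 0.31, limma adjusted p = 0.758). Leaving out SOD1G93A replicate 4 gave -0.01, leaving out SOD1G93A replicate 1 gave -0.38, and leaving out wild-type replicate 2 gave -0.08.

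The ratio of Adipoq, Cidec and Cfd rested on a reference signal that was not constant. The reference pool was the same on all arrays, and the raw Cy5 intensity of most of the 10 genes varied less than for these genes. Between the highest and the lowest array it varied by 1.21-fold for Plin4, 1.22-fold for Fabp4 and 1.27-fold for Lipe. The range was 1.36-fold for Pparg, 1.39-fold for Pck1 and 1.44-fold for Pnpla2. The Cy5 intensity of Pnpla2 stood nearly in the order of its Cy3, at 2004 on wild-type replicate 1 and 1393 on SOD1G93A replicate 4. For Plin1 it varied by 1.73-fold, from 94 on wild-type replicate 1 to 54 on SOD1G93A replicate 4, the arrays of its highest and lowest Cy3. Over all gene rows the median was 1.25-fold. For Adipoq the Cy5 intensity was 468, 226, 180 and 114 on the wild-type arrays and 99, 162, 130 and 85 on the SOD1G93A arrays, a 5.48-fold range that followed the Cy3 intensity of 34454, 12877, 7515 and 3269 and of 2539, 7682, 5739 and 1622. For Cidec the Cy5 range was 4.58-fold and the Cy3 range 16.1-fold, and for its other probe they were 3.48-fold and 15.2-fold. For Cfd they were 4.38-fold and 7.42-fold, and Cy5 stayed between 0.412% and 0.697% of Cy3 on all 8 arrays. A Cy5 range of at least 2-fold was seen in 0.718% of all rows.

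Among the 86 rows with complete values and a mean log2 ratio above 4, 11 had a Cy3 range of at least 4-fold, a limit set after the values were seen. Their Cy5 range had a median of 3.28-fold, and Adipoq, Cidec and Cfd were 3 of them. The 487 rows with a Cy3 range of at least 4-fold at any ratio had a median Cy5 range of 1.27-fold. The part of this shared movement of both dyes in the ratios was not tested. Where Cy5 moves with Cy3, the ratio spans less than Cy3 itself. Adipoq spanned 4.90-fold by the ratio and 18.5-fold by normalized Cy3, Cidec 4.20-fold and 13.8-fold, and Cfd 2.25-fold and 7.18-fold. Plin4 spanned 16.9-fold and 15.9-fold, and Pck1 21.1-fold on both scales. No spot of the 11 probes was saturated.

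**Figure D2:**
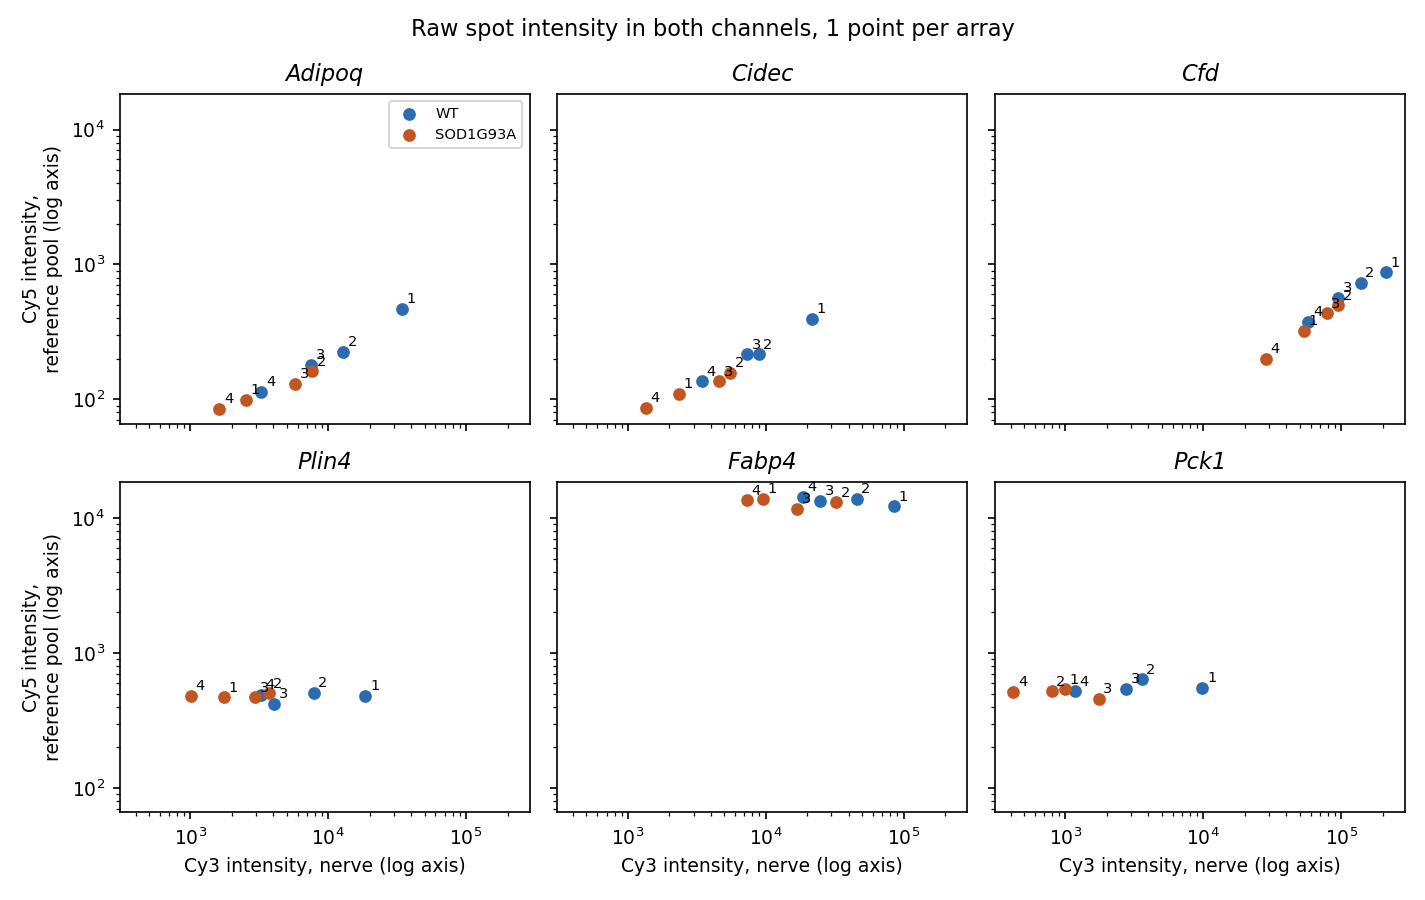
Each panel plots, for 1 adipocyte gene, the raw Cy5 intensity of the reference pool against the raw Cy3 intensity of nerve on log axes, with 1 point per array and its replicate number. Cy5 was higher where Cy3 was higher for Adipoq, Cidec and Cfd, by 5.48-, 4.58- and 4.38-fold from the lowest to the highest array, and lay nearly flat for Plin4, Fabp4 and Pck1.

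In the Cy3 channel alone, after quantile normalization between arrays, the 10 differences ran from -1.77 (Pck1) to -0.79 (Lipe and Pnpla2), with a median of -1.18, against 0.01 over all rows. Adipoq gave -1.33 ± 0.67 (SE), Cidec -1.33 ± 0.55 and Cfd -0.87 ± 0.45, each larger than by the ratio. Plin1 gave -1.03 ± 0.53, Plin4 -1.5 ± 0.54, Fabp4 -1.34 ± 0.52 and Pparg -0.97 ± 0.48. None of the 10 was called (limma adjusted p from 0.313 to 0.455), and 0.222% of all genes were. An unadjusted limma p below 0.05 was reached by 6 of the 10, beside 5.68% of all genes that were lower at this level. The groups overlapped for all 10, while 3.57% of all genes were lower without overlap.

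**Figure D3:**
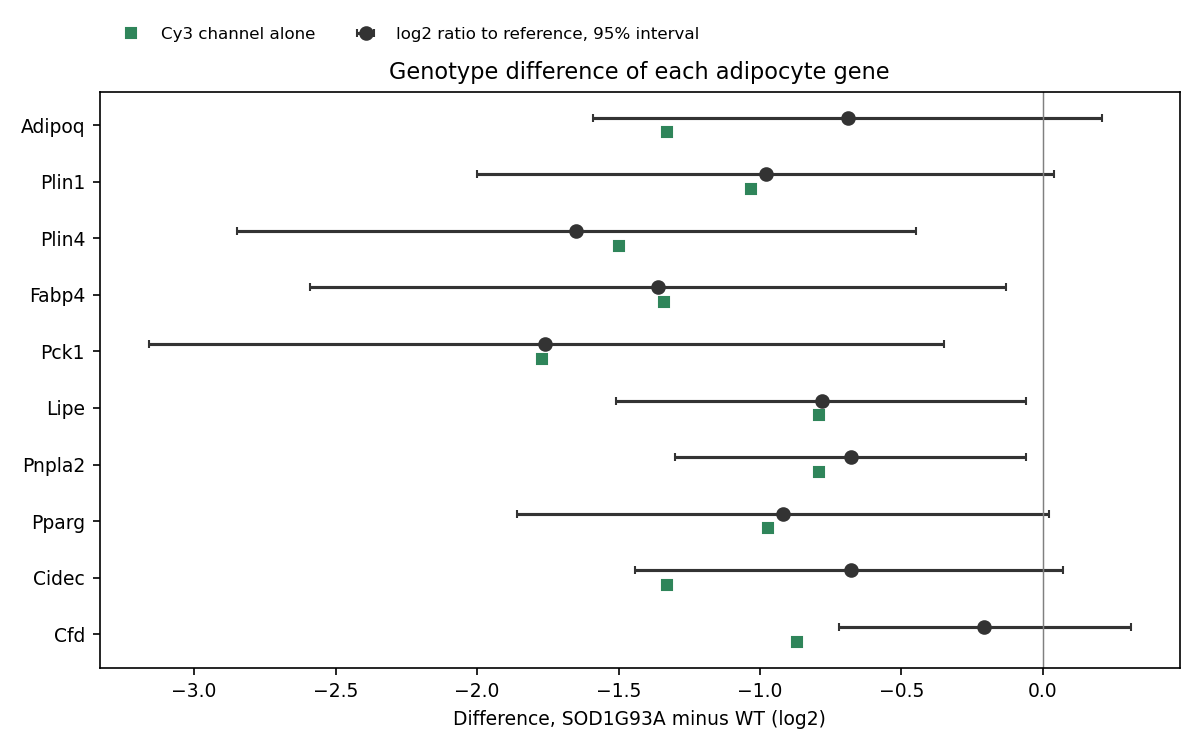
The x axis gives the SOD1G93A minus wild-type difference on the log2 scale for each adipocyte gene, as a black point with its 95% interval for the ratio to the reference and as a green square for the Cy3 channel alone. All 20 points lie below 0, and the intervals of 5 genes exclude 0 before adjustment over all genes.

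The spread within a genotype was wide for these genes. The median SD within groups was 0.71 over the 10 genes, from 0.39 for Cfd to 1.09 for Pck1, against 0.16 over all rows. Across all 8 arrays the range of the 10 genes ran from 1.17 to 4.40 on the log2 scale with a median of 2.54, while the median row spanned 0.51, and 0.633% of all rows spanned at least 2.54. Within wild type the median range of the 10 was 1.73, and within SOD1G93A it was 1.41.

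The order of the arrays was nearly the same for every gene. SOD1G93A replicate 4 was the lowest array for 10 of 10 genes, as it was for 12.1% of all rows. Wild-type replicate 4 was the lowest wild-type array for all 10 and fell within or below the SOD1G93A range for 9. In normalized Cy3 the wild-type arrays stood in the order 1, 2, 3, 4 for all 10 genes, and wild-type replicate 1 was the highest of the 8 for all 10, against 16% of all rows. SOD1G93A replicate 2 was the highest of its group for 9 of 10 in Cy3, Pck1 being the exception. Wild-type replicates 1 and 2 exceeded all SOD1G93A arrays for 9 genes by the ratio and for 10 by Cy3. Pearson correlations over the 8 arrays between pairs of the 10 genes ranged from 0.66 to 0.99 with a median of 0.94 over 45 pairs. These pairs share the arrays and their normalization.

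The first principal component of all genes held 36.4% of the variance and placed the 2 arrays numbered 1 at its ends, wild type at -33.7 and SOD1G93A at 30.3. The median Cy3 intensity of kept spots was also farthest from the rest on these arrays, 734.1 on the former and 377 on the latter. On the 6 arrays numbered 2 to 4, a setting chosen after seeing the data, the median difference of the 10 genes was -0.61 and 0 were called. Leaving out only wild-type replicate 1 gave -0.55, and leaving out only SOD1G93A replicate 4 gave -0.63. The mouse Sod1 probe gave 0.13 in wild type and -0.04 in SOD1G93A nerve, which is no check of the genotype labels because its binding to human SOD1 is unknown here. Pearson correlations between arrays over genes ran from 0.88 to 0.98.

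Markers of other cells moved with the adipocyte genes on some arrays. The median over a list of each gene's log2 ratio minus its mean over the 8 arrays was, for the 10 adipocyte genes, 1.25, 0.87, 0.11 and -0.36 on the wild-type arrays and -0.33, 0.04, -0.26 and -1.31 on the SOD1G93A arrays. For skeletal muscle (12 of 16 markers kept) it was 2.51, 1.43, -0.66 and -0.54 on the wild-type and -0.49, -0.80, -0.81 and -0.68 on the SOD1G93A arrays. Muscle markers were thus high on wild-type replicates 1 and 2 and nearly level on the other 6 arrays, whereas adipocyte genes differed among those 6, from 0.11 on wild-type replicate 3 to -1.31 on SOD1G93A replicate 4. The summed Cy3 level of muscle markers ran from 6048 to 60026 over the wild-type arrays and from 4960 to 6423 over the SOD1G93A arrays. That of the 10 adipocyte genes ran from 81242 to 317153 and from 36556 to 127741, a sum that Cfd and Fabp4 dominate. Of the muscle markers, Mylpf was well above background on 0 arrays, and Myh2 and Mybpc2 on 2 wild-type arrays and 0 SOD1G93A arrays. Tnnt3, a fast troponin gene, gave -1.62 ± 0.59 (SE) and Actn3, a fast actinin gene, -1.53 ± 0.58 between genotypes, with Actn3 well above background on 2 SOD1G93A arrays, and neither was called (limma adjusted p = 0.348 and 0.362). The part of muscle in the adipocyte values was not tested.

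Vessel markers followed a similar order with a smaller spread. Smooth muscle and pericyte markers had list medians of 0.66, 0.50, 0.01 and -0.19 on the wild-type and -0.14, -0.23, -0.26 and -0.52 on the SOD1G93A arrays, with summed Cy3 levels of 74725 to 137740 and 67624 to 73360. Of the 12 kept of 13, 11 were lower in SOD1G93A, and Lmod1 was well above background on 0 arrays. Tagln, a smooth muscle actin-binding protein gene, differed by -0.79 ± 0.22 (SE) and the smooth muscle actin gene Acta2 by -1.12 ± 0.39. Endothelial markers had list medians of 0.57, 0.32, 0.13 and -0.03 and of -0.11, -0.06, -0.27 and -0.51, and 13 of 14 were lower, with summed Cy3 of 31403 to 35013 and 20896 to 31171. Robo4 and Esam, endothelial surface receptors, differed by -0.75 ± 0.13 and -0.61 ± 0.14 (SE), without overlap of the groups and without a call (limma adjusted p = 0.0775 and 0.136). Their part in the adipocyte values was not tested.

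Preadipocyte and fibroblast markers (14 of 14 kept) had 11 lower in SOD1G93A and 3 higher, with a median difference of -0.18. Their list medians were 0.24, 0.08, 0.08 and 0.04 on the wild-type and -0.32, 0.06, 0.03 and -0.04 on the SOD1G93A arrays, so wild-type replicate 1 was highest, as for the adipocyte genes, and SOD1G93A replicate 1 lowest. Their summed Cy3 was 264453 to 296576 in wild type and 189196 to 303372 in SOD1G93A, and the highest sum was on SOD1G93A replicate 4, where the adipocyte genes were lowest. Cd34, a progenitor surface protein gene, differed by -0.45 ± 0.15 (SE) and Pi16, a marker of adventitial fibroblasts, by -0.76 ± 0.29. Myelinating Schwann cell markers were all kept (12 of 12), with 11 higher and 1 lower in SOD1G93A, a median difference of 0.11 and summed Cy3 of 339028 to 493591 and 393149 to 432877. The 1 lower gene, the myelin regulator Egr2, differed by -0.46 ± 0.15 and the connexin gene Gjb1 by 0.25 ± 0.14. Perineurium markers (8 of 8 kept, 20310 to 30319 and 27450 to 32343) included Tjp1 at -0.16 ± 0.13 and Lypd2 at 0.17 ± 0.19. Macrophage markers (13 of 14 kept, 13096 to 16245 and 13654 to 23258) had 11 higher and 2 lower in SOD1G93A, with Trem2 at 1.26 ± 0.19 and Ms4a7 at 1.07 ± 0.22, and Cd163 well above background on 0 arrays. The macrophage list medians were -0.08, -0.26, -0.49 and -0.21 on the wild-type and -0.44, 0.36, 0.46 and 0.76 on the SOD1G93A arrays. SOD1G93A replicate 1 thus lay within the wild-type range. Red blood cell markers had 6 of 7 kept, with 24155 to 39358 and 28866 to 35703. Of these 4 were lower and 2 higher in SOD1G93A, with a median difference of -0.02 and Hba-a1 at 0.25 ± 0.26. Of 9 lymph node markers 3 were kept, with 369 to 526 and 365 to 466. The T cell gene Cd3e was at -0.20 ± 0.09, and the B cell gene Ms4a1 was well above background on 0 arrays. None of these genes was called.

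**Figure D4:**
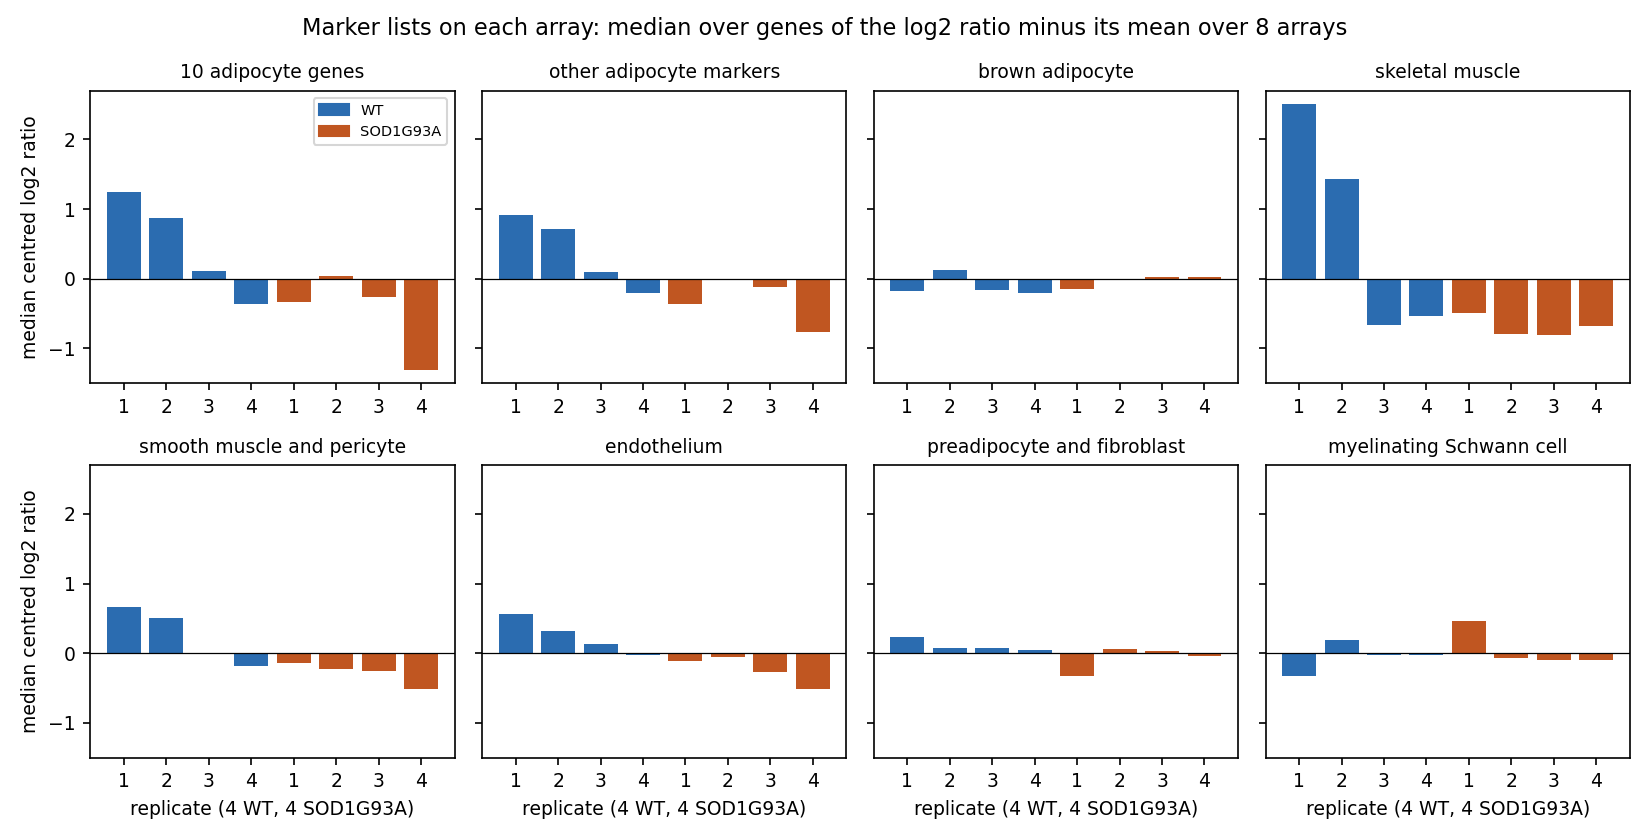
Each panel gives, for 1 marker list, the median over its genes of the log2 ratio minus the gene's mean over the 8 arrays, as 1 bar per array, with 4 wild-type bars followed by 4 SOD1G93A bars. The adipocyte bars step from 1.25 on wild-type replicate 1 to -1.31 on SOD1G93A replicate 4, the skeletal muscle bars are high only on wild-type replicates 1 and 2 (2.51 and 1.43), and the brown adipocyte, fibroblast and Schwann cell bars stay between -0.32 and 0.46.

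Of the other genes of the adipocyte programme, listed by textbook roles with earlier results of these data known, 0 were called in any list. Other adipocyte markers had 9 of 10 lower and a median of -0.63, and their list medians on the arrays were 0.92, 0.72, 0.09 and -0.21 in wild type and -0.36, -0.02, -0.12 and -0.77 in SOD1G93A. Tusc5, which aids glucose transporter traffic in adipocytes, gave 1.72, 1.70, 0.94 and 0.66 and then 0.63, 0.55, 0.67 and 0.05, a difference of -0.78 ± 0.25 (SE, limma adjusted p = 0.294) across groups that overlapped only at wild-type replicate 4. Acvr1c, an activin-type receptor of adipocytes, differed by -0.98 ± 0.36. Both were well above background on 4 wild-type and 3 SOD1G93A arrays.

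Genes of lipid synthesis, uptake and lipolysis are shared with other cells, among them Schwann cells, and their lists had medians nearer to 0. Of 16 genes of fatty acid and triglyceride synthesis, 12 were lower, with a median of -0.13, and those of smallest p were the phosphatidate phosphatase gene Lpin1 at -0.43 ± 0.13 (SE) and the triglyceride synthase gene Dgat1 at -0.60 ± 0.26. Of 8 measured lipolysis genes, 6 were lower, with a median of -0.34. Mgll, whose product cleaves monoglycerides and which many cells express, was the one with the smallest p and was higher in SOD1G93A. It gave 2.60, 2.79, 2.91 and 2.86 on the wild-type and 3.71, 3.51, 3.08 and 3.40 on the SOD1G93A arrays, groups that did not overlap, with a difference of 0.63 ± 0.14 (SE, limma adjusted p = 0.122). Pde3b, the phosphodiesterase through which insulin restrains lipolysis, differed by -0.99 ± 0.39. The water and glycerol channel gene Aqp7 was well above background on 1 wild-type array and was not kept.

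Droplet proteins beyond the 10 genes had 9 of 12 lower and a median of -0.24. Cav2, a caveolin gene, differed by -0.48 ± 0.13 (SE) and Fitm2, needed for droplet budding, by -0.49 ± 0.14, both without overlap. Plin2, the perilipin of most other cells, differed by -0.03 ± 0.21, Plin3 by 0.02 ± 0.10, and Plin5, the perilipin of oxidative tissue, by -0.88 ± 0.26. These 3 were named after their values were seen, to set the perilipin family side by side. Uptake genes had 9 of 10 lower, with a median of -0.32, Slc27a1 at -0.50 ± 0.22 and Gpihbp1, the capillary anchor of lipoprotein lipase, at -0.47 ± 0.22. Adipocyte transcription factors had 7 of 10 lower, with a median of -0.18, Ebf2 at -0.38 ± 0.09 and Ebf1 at -0.46 ± 0.14, both without overlap. The C/EBP genes, named after their values were seen because of the motif search, went both ways. Cebpa differed by -0.80 ± 0.40, Cebpb by 0.23 ± 0.36 and Cebpd by 0.89 ± 0.31, the largest difference in the list (limma adjusted p = 0.325). The PPARG partner Rxra was well above background on 2 arrays of its best probe and was not kept.

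Among adipokines and adiponectin receptors 7 of 7 measured genes were lower, with a median of -0.17. Cdh13, which binds adiponectin on vessels, differed by -0.76 ± 0.27 (SE) and the adiponectin receptor gene Adipor2 by -0.69 ± 0.29. Lep, the leptin gene, was well above background on 1 wild-type array and 0 SOD1G93A arrays, and Serpina12 on 0. Brown adipocyte genes had 2 of 7 lower and a median of 0.22, with Prdm16 and Ppargc1a at 0.25 ± 0.17 each. Their defining member Ucp1, the uncoupling protein gene, and Elovl3 were well above background on 0 of 8 arrays. Prdm16, Ppargc1a, Cpt1b, Cox8b and Cox7a1 of this list were well above background on all 8 arrays.

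The genes whose pattern over the 8 arrays was most like the mean standardized profile of the 10 were listed by Pearson correlation, as a description. The 12 with the highest values ran from 0.966 to 0.986, and 1.12% of rows had a correlation above 0.9. Of the 10 genes themselves, Plin1 had 0.990, Plin4 0.986 and Lipe 0.982, while Pck1 had 0.915 and Cfd 0.783. The 12 were Ces1d (0.986), a carboxylesterase gene of fat and liver, Serpina3c (0.983), Glb1l2 (0.980), B230114P17Rik (0.980), Icam2 (0.978), Ly6c1 (0.978), Ly6a (0.972), Fzd4 (0.970), Mfng (0.969), Mrap (0.967), Abcb1a (0.966) and Acacb (0.966). Mrap encodes the accessory protein of the melanocortin 2 receptor and Acacb an acetyl-CoA carboxylase. Icam2, Ly6c1 and Abcb1a are known from vessel endothelium. Ces1d gave -0.12, -0.72, -1.59 and -2.20 on the wild-type and -2.41, -1.70, -2.08 and -3.35 on the SOD1G93A arrays, a difference of -1.23 ± 0.47 (SE, limma adjusted p = 0.369). The 12 differences ran from -1.27 (Glb1l2) to -0.27 (Abcb1a), and none was called.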

How the data were processed

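Sciatic nerve RNA of 4 wild-type and 4 SOD1G93A mice (Cy3) was hybridised against a common reference (Cy5). Per the file headers, Agilent Feature Extraction (version 11.5.1.1) measured linear intensity and local background of each spot in both channels. A different version, 11.0.1.1, and limma stand in the submitters' processing notes, the latter with no role. Values in the deposited series matrix are log10 ratios (Cy5 over Cy3) and equal the log ratio in the scanner files, with a largest difference of 0. The sign was turned here.

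Mean intensity was corrected by normexp with an offset of 50 and normalized by loess within arrays, with no weight for control spots. Spots with outlier flags were left out and spots of a probe averaged. Kept were probes whose Cy3 signal was well above background on 4 or more arrays (19838 of 55681), and each gene took its brightest kept probe (15343 rows). The 2-sided comparison of genotypes used limma 3.58.1 (lmFit, eBayes) under R 4.3.3 (data.table version 1.17.8). All adjusted p-values are from these limma fits. Normalized Cy3 is the Cy3 value after loess, quantile normalized between arrays. Marker lists were described by counts and medians. The genes, lists and rules were chosen with earlier results of these data known. Named are the 10 genes, the 2 genes of smallest p per list (1 for red blood cell and lymph node markers) and the 12 genes most alike. Any other gene named was chosen after its values were seen.

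The fit was tested on simulated data. Promoter windows are RefSeq's for GRCm38.p6 and were matched by symbol. The series' design text calls the arrays biological replicates. Precision is limited by their number. Alternatives covered background correction, normalization, channel, probe filter, replicate block, array weights, variance model, probe choice, the series table and leaving out each array.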

Additional observations from a re-analysis of the deposited data

Results flagged for a closer look

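On SOD1G93A replicate 4 the Plin4 log2 ratio was 0.25, and on the same array the Cidec log2 ratio was 2.80. Both were flagged because the array's gap to the nearest other SOD1G93A array was 0.846 and 0.886 of the group's range, above Dixon's 95% critical value for 4 samples. Of 20 sets of 4 arrays tested over the 10 genes, 2 were flagged, and chance flags about 1 in 20. The genes share arrays, so the flags are not separate events. The same array was the lowest of 8 for all 10 genes.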

How the results depend on the processing

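All 10 genes kept a lower mean in SOD1G93A and no call in each of 23 alternatives (229 values, all below 0). One of these, Aquantile normalization, leaves ratios unchanged by construction and could move nothing. The replicate block, the variance model, both changes of probe filter and each probe as its own row leave the difference of each kept gene unchanged. These settings could move only a call. Taking the mean of all kept probes could move only the Cidec difference. The 229 values are therefore not separate results. Over the 23 alternatives the median difference ran from -1.11 to -0.55 with 1 array left out and from -1.18 to -0.61 otherwise. Lipe had 22 values, since its probe was not kept when all 8 arrays had to be well above background. The widest spans were those of Cidec (-1.33 to -0.34), Adipoq (-1.33 to -0.36), Pck1 (-2.22 to -1.31) and Cfd (-0.87 to -0.01). For Cidec, Adipoq and Cfd the most negative value is the Cy3 channel alone. With Agilent processed signals Adipoq gave -0.39 and Cidec -0.34.

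The count of all genes called was 25. It was 7 both for the series table and for Agilent processed signals, which are not independent, 1 with median centring in place of loess, 16 with no filter on dim probes, 424 with array weights, 234 on the 6 arrays numbered 2 to 4, and 3 to 180 with 1 array left out, the highest without SOD1G93A replicate 1. The cause was not tested. With the replicate number as a block the count was 1, and the block changed no call among the 10 genes. Deviations of same-numbered arrays correlated from -0.16 to 0.10, and 0 of 8 arrays correlated best with its own number. The SE of each of the 10 genes was smaller with the block, at 0.17 against 0.40 for Adipoq and 0.15 against 0.23 for Cfd. Whether same-numbered arrays share more than the number was not tested. Dim signal limits Lipe on SOD1G93A replicate 4 and, for Cidec's dimmer probe, Cy5 on 2 arrays.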

Other observations

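The proportions among the adipocyte genes were not constant over the arrays. Each gene's normalized Cy3, centred on its mean over the 8 arrays, was set against the median of the 10 genes on the same array. Pck1 stood 1.36 below that median on the log2 scale on SOD1G93A replicate 2 (-1.36), where the other 9 genes lay between -0.25 and 0.25 of it, and between -0.46 and 0.52 on the other 7 arrays. On SOD1G93A replicate 4 the lipase gene Pnpla2 stood above the median by 0.83, and on wild-type replicate 1 below it, at -0.54. Lipe was at -0.55 on wild-type replicate 1, and its probe was not well above background on SOD1G93A replicate 4, so no departure is given there. Cfd was also at -0.55 on wild-type replicate 1. Pck1, Pnpla2, Lipe and Cfd each had 1 spot per array, so each of these departures rests on a single spot. Plin1 kept within -0.22 and 0.12 on all 8 arrays.

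Adrb3, the beta 3 adrenergic receptor gene of adipocytes, was chosen after its values were seen. Its log2 ratio was 3.33, 1.52, 0.72 and 0.38 on the wild-type and 0.84, 2.21, 0.93 and -0.45 on the SOD1G93A arrays, with a difference of -0.61 ± 0.69 (SE, limma adjusted p = 0.760).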
